A study of Mus musculus with 6 samples.

Results

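Potassium channel genes, the mouse genes whose symbols begin with Kcn, were compared between cortical neural progenitors and the neurons they produce. A gene was a member if its symbol had the form Kcn, further letters and a number, and if a probe set of the array (the group of probes that reads a transcript) was annotated to that symbol alone. Symbols with an antisense (os) or overlapping transcript (ot1) suffix were left out, 3 of them. In this way 88 of 19938 genes were members: 35 voltage-gated channel genes, 8 calcium- or sodium-activated channel genes, 15 inward rectifier genes (Kcnj), 14 two-pore channel genes (Kcnk) and 16 genes of auxiliary subunits. The cells came from the brain of C57BL/6J mice and were purified by fluorescence-activated cell sorting on a pair of reporters. There were 3 arrays of GFP+ cortical progenitors and 3 arrays of RFP+ neuronal progeny, 1 for each sample. The labels give the cortex as the origin of the GFP+ cells and only the brain for the RFP+ cells, so region and cell state cannot be told apart. The sources used here do not state the age of the animals or the promoters behind the reporters. Whether replicates are separate animals is not stated either, and the tests therefore cover the spread among these arrays, which may be technical.

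Potassium channels let potassium leave or enter a cell along its gradient and so set the resting potential and shape the action potential. Voltage-gated channels open on depolarisation and end the spike, whereas calcium-activated channels open as calcium enters and underlie the afterhyperpolarisation. Inward rectifiers and two-pore channels pass current near rest, in glia and progenitors as well as in neurons, and auxiliary subunits change the gating or surface number of the pore-forming proteins.

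The sort matched the labels in direction on fixed marker genes. All 10 cortical progenitor markers were higher in the GFP+ arrays and all 10 cortical neuron markers were higher in the RFP+ arrays. The neuron list still summed to 23774.4 to 27632.1 on the GFP+ arrays, against 61675.6 to 66614.9 on the RFP+ arrays. The progenitor list summed to 10314.4 to 11336.6 on the RFP+ arrays, against 45620.3 to 46253.5 on the GFP+ arrays. Each group thus held marker signal of the other, and its source was not tested. Markers of other cells also moved with the groups: 10 of 10 endothelial, 8 of 10 pericyte and mural and 5 of 7 measured oligodendrocyte lineage markers were higher in the GFP+ arrays. Cspg4 counts in both the mural and the oligodendrocyte list. Acta2 and Tagln of the mural list and Mbp and Mog of the oligodendrocyte list did not pass. The summed intensity of the endothelial list was 3492 on GFP+ replicate 1, against 6585 and 8401 on replicates 2 and 3, and 1298 to 1517 on the RFP+ arrays. The mural list summed to 7485 to 9516 in GFP+ and 1394 to 1561 in RFP+, and the oligodendrocyte list to 1688 to 2486 and 606 to 832. No marker of these 3 lists was at 0 on any array, but the lowest value was 1.01 (Olig2 on RFP+ replicate 1). Single genes held a large part of the RFP+ sums. Slc2a1 of the endothelial list read 590, 665 and 577 on the RFP+ arrays, and Acta2 of the mural list 524, 542 and 657. Of 9 measured microglia markers 1 differed (higher in RFP+), with sums of 1113 to 1805 and 1539 to 1783. Of 9 inhibitory neuron lineage markers 2 (Gad2 and Dlx2) were higher in GFP+ and none in RFP+ by limma (0 also at an unadjusted p under 0.05). That list summed to 12154 to 15756 on the GFP+ arrays, to 6184 on RFP+ replicate 3, and to 12458 and 15861 on the other RFP+ arrays. Of 3 measured red blood cell markers none passed the limma test (1 at an unadjusted p under 0.05), and of 7 measured choroid plexus markers 1 was higher in RFP+. The choroid plexus list includes Kcne2, itself a member, which did not pass. Ttr, the transthyretin gene that defines that list, read 11.5, 41.3 and 1204 on the RFP+ arrays. In sorted bulk RNA, fewer cells of a type and less RNA per cell cannot be told apart.

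Many potassium channel genes were higher in neurons than in progenitors, with the largest differences for Kcna1, Kcnv1 and Kcnq3. A few were higher in progenitors, with the largest for Kcnk5, Kcnj10 and Kcnj8. Throughout, progenitors and neurons name the sorted GFP+ and RFP+ groups, each of which held marker signal of the other. The GFP+ group also held higher endothelial, mural and oligodendrocyte lineage marker signal. The part of such cells in any gene higher in GFP+ was not tested. The order among neuronal genes depends on the offset of 16 added before the log: with an offset of 1 it was Kcnv1 (3.94), Kcna1 (3.66) and Kcng3 (3.35), with Kcnq3 at 2.83. Of the 88 members 36 were higher in RFP+ neurons, 5 were higher in GFP+ progenitors and 47 did not pass the test (limma, adjusted p under 0.05 over all 19938 genes). Over all genes tested 16.2% were higher in RFP+ and 13.8% in GFP+. Among the members the shares were 40.9% and 5.68%. At least a 2-fold difference was found for 22 members higher in RFP+ (5.98% of all genes) and 4 higher in GFP+ (7.00% of all genes). The median log2 difference, RFP+ minus GFP+ on log2(intensity + 16), was 0.41 over the members and 0.08 over all genes. The offset of 16 understates the change of dim genes. The 3 RFP+ arrays all lay above the 3 GFP+ arrays for 45 members, and below them for 8 (24.1% and 19.9% of all genes).

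The classes differed in their counts. Of the voltage-gated genes 18 of 35 were higher in RFP+ and none in GFP+ by limma (51.4% and 0%, median difference 0.65). At an unadjusted p under 0.05, 1 voltage-gated gene (Kcns2) was higher in GFP+. Of the calcium- or sodium-activated genes 7 of 8 were higher in RFP+ and none in GFP+ (median 1.18), nor was any higher in GFP+ at an unadjusted p under 0.05. Auxiliary genes divided into 7 higher in RFP+, 2 higher in GFP+ and 7 that did not pass (median 0.45). Inward rectifiers gave 2 in each direction out of 15 (median -0.09), and two-pore channels 2 higher in RFP+ and 1 higher in GFP+ out of 14 (median 0.26). For these last classes the share higher in RFP+ was 13.3% and 14.3%, beside 16.2% of all genes. With the replicate number as a block, 4 two-pore genes were higher in RFP+ and 2 in GFP+, beside 20.3% and 16.7% of all genes. The difference between classes was not tested.

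**Figure D1:**
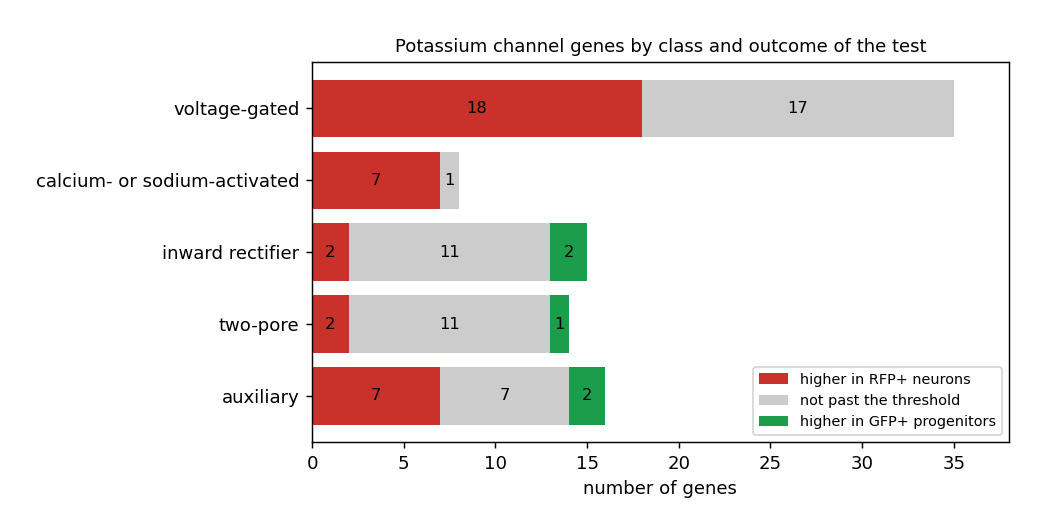
Number of potassium channel genes in each class that were higher in RFP+ neurons (red), higher in GFP+ progenitors (green) or not past the threshold (grey). The voltage-gated bar holds 18 red, 17 grey and no green genes, and the inward rectifier bar 2 red, 11 grey and 2 green.

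Dim signal bears on the counts. The 95th percentile of olfactory receptor genes, used here to mark the level of silent genes, was 210.8 for the GFP+ mean and 205.9 for the RFP+ mean. In both groups 32 of the 88 members lay under these levels, beside 37.6% of all genes. Of the 32 members 26 did not pass the test. Those that passed were Kcna4, Kcng3, Kcnf1, Kcnh1, Kcnt1 and Kcnip4, each higher in RFP+. Of the 36 members higher in RFP+, 23 had a GFP+ mean under that level, and of the 5 higher in GFP+, 4 (Kcnk5, Kcnj10, Kcnj8 and Kcne1l) had an RFP+ mean under it, so the folds of these genes depend on the offset. With an offset of 1 the log2 difference of Kcnk5 was -3.04, of Kcnj8 -2.58, of Kcnj10 -2.53 and of Kcne1l -2.30. Members under it in both groups made up 8 of 15 inward rectifiers, 6 of 14 two-pore, 11 of 35 voltage-gated, 5 of 16 auxiliary and 2 of 8 calcium- or sodium-activated genes. All the 16 members that missed the threshold with both means above the level are named in the paragraphs on their classes.

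**Figure D2:**
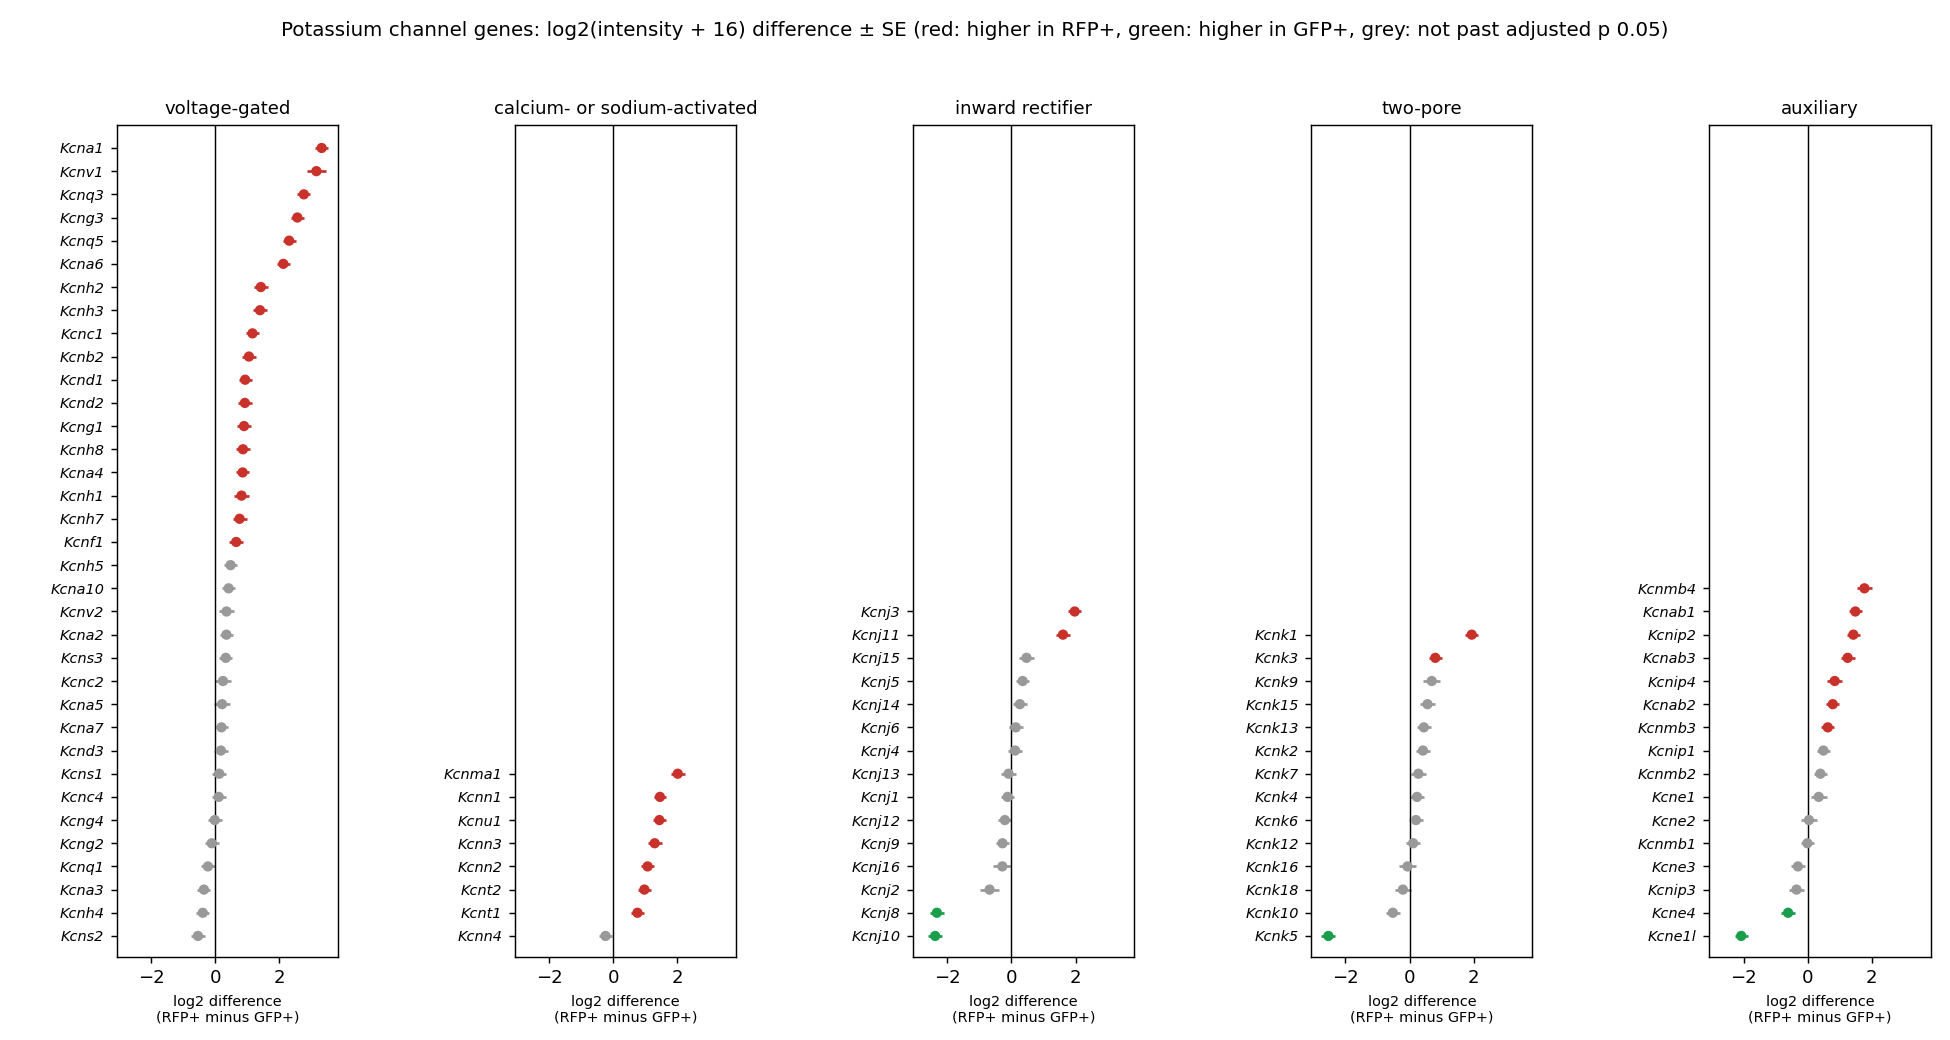
Log2 difference (RFP+ minus GFP+) of every member with its standard error, by class; red and green points passed the test, grey points did not. Differences ran from -2.53 for Kcnk5 to 3.32 for Kcna1, and no green point lies in the voltage-gated panel.

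Of the voltage-gated Kv1 and Kv7 genes, whose channels open at low voltages, 3 of 8 Kv1 genes (Kcna1, Kcna6 and Kcna4) and 2 of 3 Kv7 genes (Kcnq3 and Kcnq5) were higher in RFP+ neurons, and none was higher in GFP+ (limma; none also at an unadjusted p under 0.05). Over all genes 16.2% were higher in RFP+ and 13.8% in GFP+. Intensities are given for replicates 1, 2 and 3 in that order. Kcna1 encodes Kv1.1, an axonal channel that limits repetitive firing. Its intensity was 42.1, 49.1 and 60.4 on the GFP+ arrays and 621, 679.7 and 634 on the RFP+ arrays. Every RFP+ array lay above the GFP+ arrays, and the gene was 9.99-fold higher in neurons (log2 difference 3.32 ± 0.20, adjusted p = 8.58e-10). Kcnq3, a subunit of the M-channel that holds neurons near rest, read 244, 295 and 303 in progenitors and 1833, 2067 and 2097 in neurons. The groups did not overlap, and the progenitor values stood above the olfactory receptor level (6.8-fold, log2 difference 2.77 ± 0.20, adjusted p = 4.45e-09). Kcnq5, another M-channel subunit gene, was 4.95-fold higher in RFP+ (2.31, adjusted p = 4.26e-08), and so was Kcna6 of the Kv1 group at 4.36-fold (2.12, adjusted p = 1.94e-07). The cardiac and epithelial member of the Kv7 group, Kcnq1, had a difference of -0.23, adjusted p = 0.439.

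The remaining Kv1 genes were less uniform. Kcna4, an inactivating channel gene, was higher in RFP+ neurons (0.85, adjusted p = 0.00252) with both means near background. Kcna3 was measured well above background in both groups, at 1201, 1402 and 1432 in GFP+ and 1092, 1127 and 928 in RFP+. The GFP+ arrays lay above the RFP+ arrays, yet the difference missed the threshold (log2 difference -0.35 ± 0.20, adjusted p = 0.192). Kcna10 also missed it (0.42, adjusted p = 0.132), as did the dim genes Kcna2, Kcna5 and Kcna7. The log2 difference of Kcna2 was 0.35 on the probe set kept and 0.77 on its other probe set, which passed among all probe sets (adjusted p = 0.0104).

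Silent subunits, which form no channel alone and modify Kv2 partners, held some of the largest differences. Kcnv1 read 5.83, 37.2 and 51.5 on the GFP+ arrays and 358, 362 and 377 on the RFP+ arrays. The RFP+ values lay close together while GFP+ replicate 1 was far below its group (8.92-fold, log2 difference 3.16 ± 0.30, adjusted p = 8.63e-08). Without that array the difference was 2.67. For Kcng3 the GFP+ values were 15.7, 12.2 and 22.6 and the RFP+ values 140.3, 193 and 203. All values lay under the olfactory receptor level, and the neurons were higher on every array (5.91-fold, log2 difference 2.56 ± 0.21, adjusted p = 2.13e-08). Kcng1 was 1.86-fold higher in RFP+ (0.90, adjusted p = 0.00213) and Kcnf1 1.57-fold (0.65, adjusted p = 0.0257). Kcnf1 was dim in both groups, and its call ended without GFP+ replicate 3 (adjusted p = 0.0816) or RFP+ replicate 1 (adjusted p = 0.164). Of 10 silent subunit genes 4 were higher in RFP+ and none in GFP+, beside 16.2% and 13.8% of all genes. Kcng2, Kcng4, Kcns1, Kcns2, Kcns3 and Kcnv2 did not pass. Kcns2 had the most negative difference of the class (-0.54, adjusted p = 0.0789), and it passed without GFP+ replicate 1 (adjusted p = 0.0310).

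Of the genes of the EAG, ERG and ELK families 5 of 7 were higher in RFP+, beside 16.2% of all genes. Kcnh2, the ERG channel that repolarises heart muscle, was 2.68-fold higher (1.42, adjusted p = 5.55e-05), and the ELK gene Kcnh3 was 2.63-fold higher (1.40, adjusted p = 3.01e-05). Kcnh8 (1.82-fold), Kcnh1 (1.76-fold) and Kcnh7 (1.69-fold) followed, of which Kcnh1 was dim in both groups. Both probe sets of Kcnh8 passed among all probe sets (0.86 and 0.74). The call of Kcnh7 was lost without GFP+ replicate 2 (adjusted p = 0.0531) or RFP+ replicate 3 (adjusted p = 0.0602). Kcnh5 missed the threshold (0.48, adjusted p = 0.0925) and passed when blocked on replicate number (adjusted p = 0.0490), while Kcnh4 was dim in both groups.

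Genes of delayed and transient currents were higher in RFP+ for 1 of 3 Kv3, 2 of 3 Kv4 and the measured Kv2 gene. Over all genes the share was 16.2%. Kcnc1, a Kv3 gene for fast spiking, was 2.24-fold higher in RFP+ (1.16, adjusted p = 2.12e-04), and Kcnb2 of the Kv2 delayed rectifiers 2.07-fold (1.05, adjusted p = 0.00147). The A-type Kv4 genes Kcnd1 and Kcnd2 were 1.91-fold and 1.9-fold higher (0.93, adjusted p = 0.00134 and 0.92, adjusted p = 0.00218). Their relative Kcnd3 read 526, 696 and 478 in GFP+ and 700.0, 743 and 489 in RFP+, with overlapping groups (0.18, adjusted p = 0.579). Kcnc4 was likewise measured in both sorted groups without passing (0.11, adjusted p = 0.745), and Kcnc2, close to the olfactory receptor level, did not pass (0.24, adjusted p = 0.462).

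Nearly all calcium- or sodium-activated channel genes were higher in neurons (7 of 8, beside 16.2% of all genes). Kcnma1, the pore of the large-conductance BK channel, read 95.5, 84.3 and 104 on the GFP+ arrays and 562, 427 and 327 on the RFP+ arrays. The neurons were higher throughout (4.03-fold, log2 difference 2.01 ± 0.22, adjusted p = 5.67e-07). A different probe set of Kcnma1 showed no such gap (log2 difference 0.23 ± 0.20, adjusted p = 0.410), and the mean of its probe sets gave 1.12. The related Kcnu1, known from sperm, read 78.6, 87.7 and 75.0 and 254, 249 and 231 (2.71-fold, log2 difference 1.44 ± 0.20, adjusted p = 9.63e-06).

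All 3 small-conductance SK genes were higher in neurons, beside 16.2% of all genes. Kcnn1 read 157, 189 and 191 in GFP+ and 488, 545 and 517 in RFP+ (2.74-fold, log2 difference 1.45 ± 0.20, adjusted p = 9.57e-06). Kcnn3 read 476, 806 and 643 and 1458, 1629 and 1592 (2.44-fold, log2 difference 1.29 ± 0.22, adjusted p = 1.13e-04). Neither gene's groups overlapped. Kcnn2 had intensities of 2238 ± 290.5 in GFP+ and 4689 ± 102 in RFP+ (SD, n = 3 arrays each), 2.1-fold higher in neurons (1.07, adjusted p = 3.25e-04). Kcnn4, the intermediate-conductance channel of blood and epithelial cells, was dim in both groups (-0.25, adjusted p = 0.413). The sodium-activated genes Kcnt2 (1.96-fold, 0.97, adjusted p = 0.00155) and Kcnt1 (1.68-fold, 0.75, adjusted p = 0.00971) were higher in RFP+. Kcnt1 was dim in both groups and missed the threshold without RFP+ replicate 1 (adjusted p = 0.0517).

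Inward rectifiers went both ways. Kcnj10 encodes Kir4.1, the potassium uptake channel of glia. It read 519.5, 749 and 646 on the GFP+ arrays and 95.2, 118 and 112 on the RFP+ arrays. Progenitors were higher on every array, and the neurons lay under the olfactory receptor level (5.21-fold higher in GFP+, log2 difference -2.38 ± 0.21, adjusted p = 3.79e-08). Oligodendrocyte lineage cells also hold this channel, and markers of that lineage were higher in the same arrays, with Olig2 at 349, 481 and 251 in GFP+ and 1.01, 25.2 and 14.8 in RFP+. Their part in the result was not tested. In the opposite direction Kcnj3, which encodes the G protein-gated subunit GIRK1, read 209.9, 281 and 257 in GFP+ and 880.0, 1173 and 1028 in RFP+. The neuronal values were all above those of progenitors (3.93-fold, log2 difference 1.98 ± 0.21, adjusted p = 3.43e-07). The other G protein-gated genes did not pass: Kcnj9 had a difference of -0.28, adjusted p = 0.334 with both groups well above background, and Kcnj5 and Kcnj6 were dim.

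The pore genes of the ATP-sensitive channel, which couples metabolism to membrane potential, changed in opposite directions, each with a sulphonylurea receptor gene. Kcnj8 (Kir6.1) read 443, 319.5 and 381 in GFP+ and 58.5, 53.2 and 77.5 in RFP+, higher in progenitors without overlap (5.02-fold, log2 difference -2.33 ± 0.21, adjusted p = 5.29e-08). Abcc9, the gene of its usual partner SUR2, read 912, 559.8 and 1203 in GFP+ and 68.2, 53.4 and 66.1 in RFP+ (11.1-fold higher in GFP+, log2 difference -3.47 ± 0.24, adjusted p = 3.66e-09). Kcnj11 (Kir6.2) read 223, 232 and 268 in GFP+ and 643, 777 and 903 in RFP+, 3.05-fold higher in neurons (log2 difference 1.61 ± 0.21, adjusted p = 4.39e-06). Abcc8, the gene of the partner SUR1, read 182, 402 and 358 and 1757, 1974 and 2219, 6.34-fold higher in neurons (log2 difference 2.67 ± 0.25, adjusted p = 8.51e-08). For none of the 4 genes did the groups overlap. Kcnj8 and Abcc9 are known from pericytes and vascular muscle. The mural markers, of which Abcc9 is one, were higher in the same GFP+ arrays, for example Pdgfrb at 1473, 1057 and 1394 against 92.5, 92.5 and 88.3. Their part in the result was not tested.

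**Figure D3:**
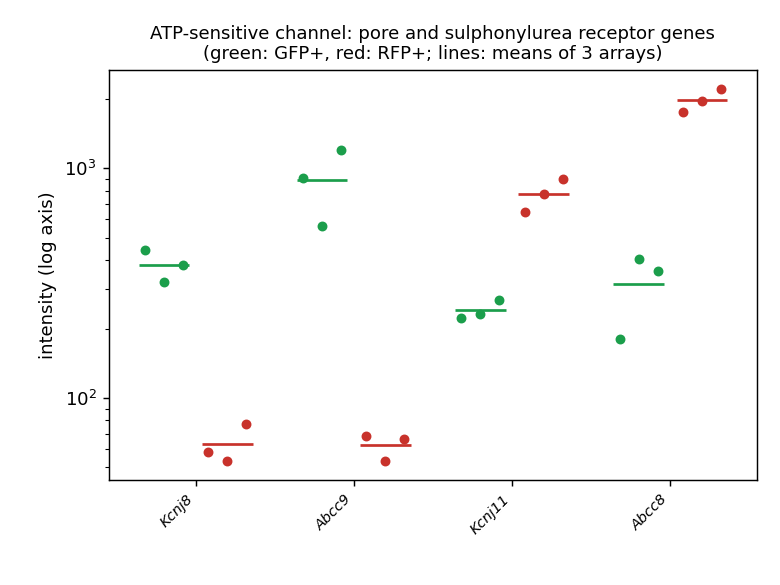
Intensity on each array (log axis) of the pore genes Kcnj8 and Kcnj11 and the receptor genes Abcc9 and Abcc8 of the ATP-sensitive channel; points are arrays and lines the means of 3. Kcnj8 and Abcc9 lie higher in GFP+ (green), Kcnj11 and Abcc8 in RFP+ (red).

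In all, 11 inward rectifier genes did not pass. Kcnj2 (Kir2.1), present in endothelium and in neurons, varied most: it read 23.5, 59.1 and 119 in GFP+ and 27.2, 36.6 and 26.5 in RFP+, all under the olfactory receptor level. Its difference missed the threshold (log2 difference -0.68 ± 0.31, adjusted p = 0.0994) and passed without GFP+ replicate 1, at -1.13 (adjusted p = 0.00344). Without GFP+ replicate 3, the highest array, it shrank to -0.25 (adjusted p = 0.505). GFP+ replicate 1 also had the lowest summed endothelial markers of its group, 3492 against 6585 and 8401. Their part in the result was not tested. Kcnj4 and Kcnj12 stood above the olfactory level in both groups with differences of 0.12 and -0.21. Kcnj1, Kcnj13, Kcnj14, Kcnj15 and Kcnj16, several of them known from kidney and epithelium, stayed dim in both groups.

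Two-pore channels carry the background leak that holds the resting potential, and 3 of 14 passed. Of these, 2 were higher in RFP+ and 1 in GFP+, beside 16.2% and 13.8% of all genes. Kcnk5 (TASK-2) had the most negative difference of all 88 members. It read 252, 265 and 233 in GFP+ and 46.5, 25.7 and 21.1 in RFP+, and no arrays overlapped (5.79-fold higher in GFP+, log2 difference -2.53 ± 0.22, adjusted p = 3.59e-08). Kcnk1 (TWIK-1) read 99.4, 126 and 106 in GFP+ and 549, 468 and 399 in RFP+. It was higher in every neuron array (3.84-fold, log2 difference 1.94 ± 0.21, adjusted p = 3.84e-07). Kcnk3 (TASK-1) went from 115, 109 and 123 in GFP+ to 207, 223 and 213 in RFP+, a smaller step with narrow groups (1.75-fold, log2 difference 0.80 ± 0.20, adjusted p = 0.00351).

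Several leak channel genes sat close to the threshold. Kcnk10 (TREK-2) was measured at 1507, 1873 and 2049.9 in GFP+ and 1070.0, 1294 and 1397 in RFP+. All progenitor arrays lay above the neuron arrays, but the test gave -0.52, adjusted p = 0.0661. Blocked on replicate number it passed (adjusted p = 0.0246), as did Kcnk9 (0.69, adjusted p = 0.0487) and Kcnk15 (0.56, adjusted p = 0.0467), so that the block gave 4 two-pore genes higher in RFP+ and 2 higher in GFP+. Without the block Kcnk9 and Kcnk15 had adjusted p = 0.0539 and 0.0785. Kcnk2 (TREK-1) read 354, 425 and 455 and 473, 519.7 and 685 (0.42, adjusted p = 0.143). Kcnk12 was present in both groups with overlapping arrays, 1156 ± 216 in GFP+ and 1256 ± 259.9 in RFP+ (SD, n = 3 each). Kcnk13 did not pass (0.45, adjusted p = 0.133), nor did Kcnk4, Kcnk6, Kcnk7, Kcnk16 and Kcnk18, which were dim in both groups.

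Among auxiliary subunits, all 3 Kv beta genes, whose proteins bind Kv1 channels in the cytoplasm, were higher in RFP+. Over all genes 16.2% were. Kcnab1 read 119, 106 and 85.9 in GFP+ and 285, 339 and 333 in RFP+ (2.81-fold, log2 difference 1.49 ± 0.20, adjusted p = 9.78e-06). Kcnab3 read 137, 157 and 156 and 334, 324 and 497, with RFP+ replicate 3 highest (2.38-fold, log2 difference 1.25 ± 0.21, adjusted p = 1.30e-04). Kcnab2 was 1.72-fold higher (0.79, adjusted p = 0.00622). Of the BK beta genes, Kcnmb4, the brain form, read 166, 313 and 227 in GFP+ and 916, 851 and 701 in RFP+, with GFP+ replicate 2 highest in its group (3.42-fold, log2 difference 1.77 ± 0.23, adjusted p = 4.85e-06). Kcnmb3 passed at 1.55-fold (0.63, adjusted p = 0.0241) but missed the threshold when any of GFP+ replicates 1 and 3 and RFP+ replicates 2 and 3 was left out (adjusted p = 0.0534 to 0.0916). Kcnmb1 and Kcnmb2 did not pass.

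KChIP genes, which encode calcium-binding partners of Kv4 channels, were mixed. Kcnip2 read 219, 268 and 213 in GFP+ and 631, 662 and 661 in RFP+, with no overlap (2.69-fold, log2 difference 1.43 ± 0.20, adjusted p = 1.22e-05). Kcnip4 was 1.8-fold higher in RFP+ (0.85, adjusted p = 0.0105), dim in both groups, and missed the threshold without GFP+ replicate 1 (adjusted p = 0.0695) or RFP+ replicate 1 (adjusted p = 0.0517). Kcnip3 did not pass (-0.35, adjusted p = 0.250). Kcnip1, a KChIP of inhibitory neurons, read 406, 478 and 408 in GFP+ and 634, 755 and 476 in RFP+ (0.49, adjusted p = 0.0900). Blocking on replicate number brought it past the threshold (adjusted p = 0.0430), and so did leaving out RFP+ replicate 3 (adjusted p = 0.0421), the array with the lowest summed inhibitory neuron markers. Their part in the result was not tested.

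KCNE genes encode single-pass proteins that assemble with voltage-gated pores. Of 5 KCNE genes none was higher in RFP+ by limma (0 also at an unadjusted p under 0.05), and 2 were higher in GFP+. Over all genes 16.2% were higher in RFP+ and 13.8% in GFP+, so 0 of 5 does not set this family apart. Kcne1l, now also called Kcne5, read 303, 406 and 299 in GFP+ and 60.0, 78.1 and 63.5 in RFP+. Progenitors were higher on all arrays (4.21-fold, log2 difference -2.07 ± 0.21, adjusted p = 1.92e-07). Kcne4, an inhibitory subunit, read 371, 318 and 456 in GFP+ and 284, 244 and 205 in RFP+, a narrow gap (1.52-fold, log2 difference -0.61 ± 0.21, adjusted p = 0.0360). Its call was lost without GFP+ replicate 1 or 3 or RFP+ replicate 2 or 3 (adjusted p = 0.0630 to 0.146), and with log2(intensity + 1) (adjusted p = 0.0534). Kcne1, Kcne2 and Kcne3 were dim and did not pass.

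**Figure D4:**
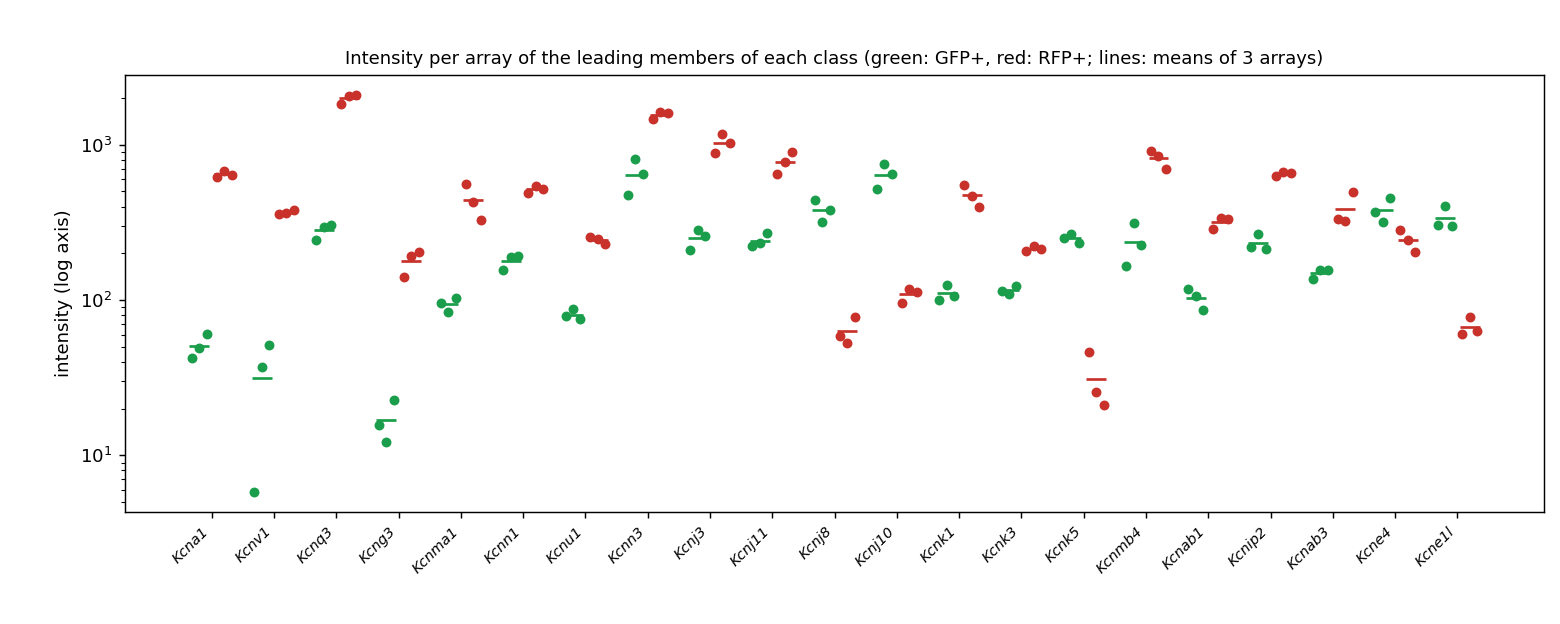
Intensity on each array (log axis) of the members with the largest passing differences, up to 4 in each class and direction; green points are GFP+ arrays, red points RFP+ arrays and lines the means of 3. The groups of the 21 genes shown do not overlap, which follows largely from choosing the largest passing differences. Levels of different genes are not comparable.

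The upstream sequences of members at the ends of the range are shown because these genes had some of the largest differences. RefSeq (build GRCm38.p6) gave start sites for 67 of the 88 members, in 92 windows, and 52 genes had a single start. The 250 bases before the start are printed, 5′ to 3′ on the gene's strand, for the 3 genes in each direction with the largest passing difference and a single listed start. Capitals mark CpG dinucleotides. The first 3 were higher in GFP+ progenitors.
Kcnk5, chr14:20181783-20182032, reverse strand, 19 CpG: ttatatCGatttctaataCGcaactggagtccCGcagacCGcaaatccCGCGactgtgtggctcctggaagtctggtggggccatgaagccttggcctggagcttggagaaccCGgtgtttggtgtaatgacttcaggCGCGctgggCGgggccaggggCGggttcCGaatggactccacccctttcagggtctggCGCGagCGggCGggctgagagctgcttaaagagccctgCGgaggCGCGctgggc
Kcnj10, chr1:172340960-172341209, forward strand, 17 CpG: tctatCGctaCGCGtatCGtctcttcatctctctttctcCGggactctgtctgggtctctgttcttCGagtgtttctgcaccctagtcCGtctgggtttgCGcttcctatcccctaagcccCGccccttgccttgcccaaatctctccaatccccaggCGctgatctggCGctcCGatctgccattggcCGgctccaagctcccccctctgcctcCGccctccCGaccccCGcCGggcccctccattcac
Kcnj8, chr6:142571615-142571864, reverse strand, 6 CpG: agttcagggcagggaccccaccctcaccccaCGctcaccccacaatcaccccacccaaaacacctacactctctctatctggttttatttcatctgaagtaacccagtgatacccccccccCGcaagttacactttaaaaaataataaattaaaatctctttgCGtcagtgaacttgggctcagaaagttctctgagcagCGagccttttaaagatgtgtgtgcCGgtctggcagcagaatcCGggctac
The next 3 were higher in RFP+ neurons.
Kcng3, chr17:83631896-83632145, reverse strand, 41 CpG: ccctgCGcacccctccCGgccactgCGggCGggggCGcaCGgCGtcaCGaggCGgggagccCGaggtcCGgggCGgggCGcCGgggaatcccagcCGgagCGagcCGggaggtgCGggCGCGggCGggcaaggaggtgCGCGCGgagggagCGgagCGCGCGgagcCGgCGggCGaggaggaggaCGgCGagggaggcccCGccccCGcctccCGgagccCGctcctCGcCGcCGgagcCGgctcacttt
Kcna6, chr6:126740675-126740924, reverse strand, 8 CpG: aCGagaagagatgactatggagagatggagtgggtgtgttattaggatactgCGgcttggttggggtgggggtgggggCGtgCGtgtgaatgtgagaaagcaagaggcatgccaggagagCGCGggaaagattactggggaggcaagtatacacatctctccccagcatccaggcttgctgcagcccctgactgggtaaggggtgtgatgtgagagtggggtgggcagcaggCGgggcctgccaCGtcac
Kcnma1, chr14:24004206-24004455, reverse strand, 31 CpG: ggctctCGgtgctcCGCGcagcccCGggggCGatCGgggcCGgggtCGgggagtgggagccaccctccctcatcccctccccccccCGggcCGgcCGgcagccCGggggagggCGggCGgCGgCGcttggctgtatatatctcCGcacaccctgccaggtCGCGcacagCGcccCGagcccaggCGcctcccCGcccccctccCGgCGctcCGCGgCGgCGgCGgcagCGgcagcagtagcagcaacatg

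The printed windows held 6 to 19 CpG in the first set and 8 to 41 in the second. The median CpG count was 10 over 30 windows of members higher in RFP+, 9 over 5 windows of members higher in GFP+, 6 over 57 windows of members that did not pass and 6 over 32841 windows of all genes. Letters of known motifs were searched on both strands; no motif searched contains another. TTCAGCACC, the left part of the site bound by the neuronal gene repressor REST, was in none of the 92 member windows and in 0.301% of all windows. The E-box CAGCTG was in 3 of 30 windows of members higher in RFP+, 2 of 5 of members higher in GFP+ and 17 of 57 of the others, against 13.0% of all windows. The E-box CAGATG was in 4 of 30, 1 of 5 and 9 of 57, against 14.4%, and among the printed windows it is in that of Kcnj8. The TATA box TATAAA was in 3 of 92 member windows and in 12.4% of all windows. A match is a description of the letters and not a site.

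Genes of proteins that assemble with potassium channels or anchor them were also measured. Of 30 such genes 13 were higher in RFP+ (16.2% of all genes), 3 in GFP+ (13.8%) and 14 did not pass, with a median difference of 0.39. Kcnrg, the gene of a soluble Kv channel regulator, missed the threshold (0.59, adjusted p = 0.0508) and passed when blocked on replicate number (adjusted p = 0.0405). Besides Abcc8, the scaffold gene Dlg2 read 170.1, 204 and 222 in GFP+ and 1109, 1258 and 1429 in RFP+ (5.96-fold, log2 difference 2.58 ± 0.20, adjusted p = 1.18e-08). Cntn2, an axonal adhesion molecule found with Kv1 channels, was 5.76-fold higher (2.53, adjusted p = 3.03e-08), and Lgi1, a secreted Kv1 modulator, 4.19-fold (2.07, adjusted p = 1.55e-07). Cntnap2, the other adhesion molecule of the Kv1 complex, did not pass (0.38, adjusted p = 0.270). Besides Abcc9, the genes higher in GFP+ were Lgi2 (-1.00, adjusted p = 0.00113) and the actin crosslinker gene Flna (-0.64, adjusted p = 0.0241). Flna missed the threshold when any of GFP+ replicate 3 and RFP+ replicates 1 and 2 was left out (adjusted p = 0.0614 to 0.128). Dpp6 and Dpp10 are genes of related auxiliary subunits of Kv4. Dpp6 was 1.72-fold higher in RFP+ (0.78, adjusted p = 0.00944), and Dpp10 had a difference of -0.55, adjusted p = 0.107.

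**Figure D5:**
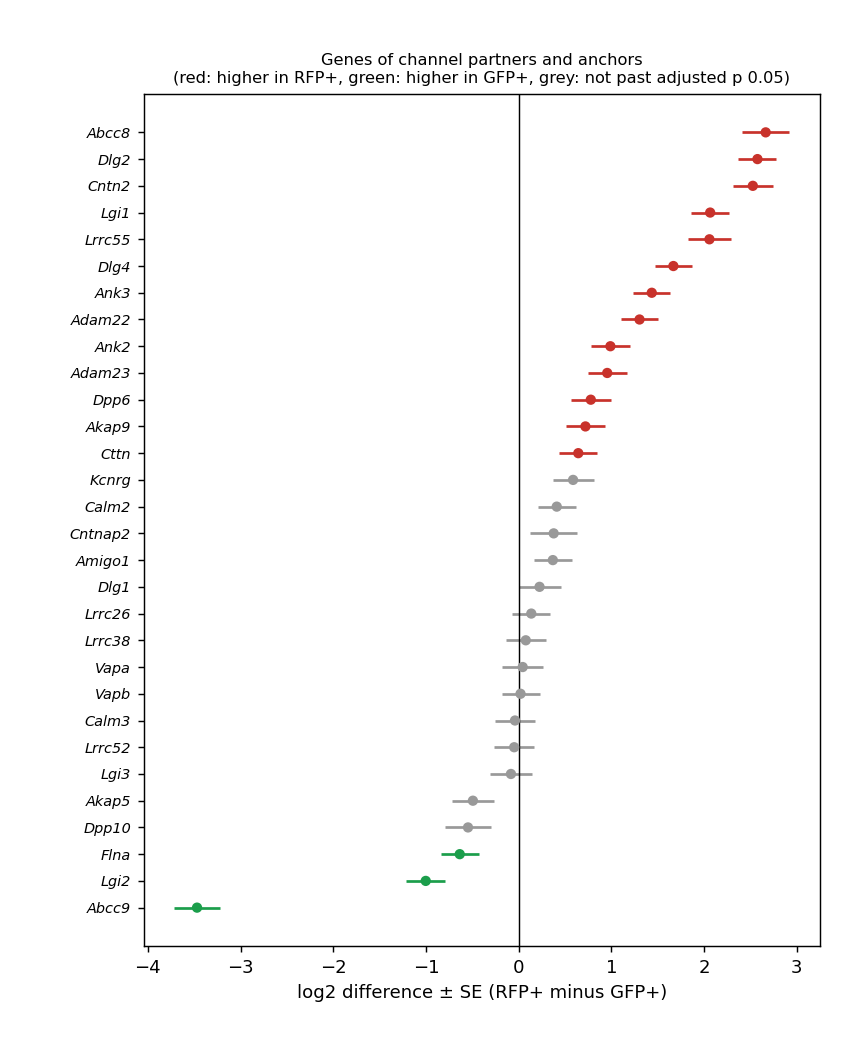
Log2 difference (RFP+ minus GFP+) with its standard error of 30 genes whose proteins assemble with or anchor potassium channels; red and green points passed the test, grey points did not. Differences ran from -3.47 for Abcc9 to 2.67 for Abcc8.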

How the data were processed

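Biotin-labelled total RNA of 6 sorted samples was hybridised to Affymetrix whole-transcript arrays, per the labels. The values are probe set intensity on a linear scale deposited by the authors; the submitters' processing notes give Affymetrix Expression Console as the software. How background, normalization and summarisation were done is not given in the sources used here, and could move dim values. Array medians were 210.31 to 221.1, and 53 to 112 probe sets per array were at 0. Of 35557 probe sets 21789 carried 1 gene symbol, 1621 several and 12147 none in the annotation used. For genes with several, the probe set with the highest mean over 6 arrays was kept, which left 19938 genes. All 88 members matched RefSeq by Entrez ID.

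Tests used log2(intensity + 16) in limma 3.58.1 (lmFit, eBayes, two-sided, Benjamini-Hochberg over all genes, threshold 0.05) in R 4.3.3, RFP+ minus GFP+, with no filter on dim genes. Python 3.11.15 was used for tables. The procedure was also run on simulated data. Those arrays were drawn independently, so the run does not cover arrays that share a replicate number. The number of arrays limits precision (median SE 0.215). Across genes, array deviations from the group mean correlated at 0.204, 0.288 and 0.361 for GFP+ and RFP+ arrays sharing a number and at -0.266 to 0.00416 between different numbers. Deviations within a group cancel out, so positive correlations at shared numbers pull the others down, and these values are not separate evidence. They also cannot tell paired samples from arrays processed together. For the block the numbers were taken to pair the samples. This rests on the data and not on a statement in the labels, and the unpaired test was kept with the block as an alternative.

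Other alternatives were an offset of 1, median centring, quantile normalization, a filter on the dimmest 30% of genes, averaging the probe sets of each gene, an intensity trend with robust moderation, and leaving out each array. Members and lists were chosen with earlier results of these data known. Values on every array are given for up to 4 passing members with the largest difference in each class and direction, and for some others chosen after their values were seen. From the partner list the 4 with the largest passing difference in each direction are named, with Cntnap2, Dpp6, Dpp10 and Kcnrg named after their values were seen.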

Additional observations from a re-analysis of the deposited data

How the results depend on the processing

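Of the 41 members that passed, 35 also passed without each array in turn, 31 of them higher in RFP+ and 4 in GFP+. No passing member changed direction under any of the 13 alternatives, though 4 of them were not tested without the dimmest 30% of genes. The count of members higher in RFP+ was 36, with 32 to 40 over the alternatives, and of members higher in GFP+ 5, with 4 to 7. The replicate block kept all 41 calls and added 5 (Kcnk9, Kcnk10, Kcnk15, Kcnip1 and Kcnh5), and changed no other member's call. Among the partner genes 14 were higher in RFP+ with the block, against 13, through Kcnrg. Two-pore genes higher in RFP+ numbered 4 with the replicate block and 4 with the intensity trend and robust moderation, against 2. Two-pore genes higher in GFP+ numbered 2 with the replicate block, with quantile normalization, without the dimmest 30% of genes and with the intensity trend, against 1. Auxiliary genes higher in GFP+ fell to 1 with log2(intensity + 1). The voltage-gated median moved from 0.65 to 0.78 with log2(intensity + 1) and to 0.82 without the dimmest 30% of genes, where 27 of the 35 genes were tested. The partner median was 0.62 without the dimmest 30%, and 5 partners were higher in GFP+ with the intensity trend. Leaving out each array gave medians of 0.49 to 0.71 for voltage-gated, 0.39 to 0.62 for auxiliary and 1.07 to 1.32 for calcium- or sodium-activated genes, and 0 to 1 voltage-gated, 1 to 2 auxiliary and 1 to 2 two-pore genes higher in GFP+, with 2 to 3 two-pore genes higher in RFP+. Where no construction is named, the cause was not tested. Median centring moved the median of all genes from 0.08 to 0.12 and quantile normalization to 0.05. Signal near background limits 32 members that were dim in both groups, as were 37.6% of all genes.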
